A study of Mus musculus with 3 samples.

Results

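The 10 genes described here encode glucose transporter 1 (Slc2a1) and enzymes that carry glucose to lactate: Hk2, Pfkl, Aldoa, Tpi1, Gapdh, Pgk1, Eno1, Pkm and Ldha. They are a fixed list of names, chosen with earlier results of these data known, and their rows were found in all 3 count matrices, which hold 27755 genes (D10 culture and E14.5 tail) or 25936 genes (D6 PM). All 10 were detected in every library.

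The study derived tendon cells from mouse embryonic stem cells (mESCs) and asked how close they come to their counterparts in the embryo. The mESCs came from blastocysts of ScxGFP mice, which carry a green fluorescent reporter for the tendon transcription factor Scx, and were kept on feeder fibroblasts before differentiation. D6 PM, labelled as embryoid bodies, is the end of paraxial mesoderm induction, reached with the BMP inhibitor LDN-193189 (500 nM, days 0 to 6) and the Wnt agonist CHIR (5 μM, days 2 to 6). D10 culture is the whole monolayer after 4 more days in TGFβ1 (10 ng/mL), the hedgehog agonist SAG (100 nM) and FGF2 (10 ng/mL), without sorting for the reporter. The E14.5 tail is whole tail tissue cut from mouse embryos, and all 3 suspensions were depleted of dying cells before capture. The mESC line used for each library and the number of embryos behind the tail were not given in the sources used here.

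Each of the 3 groups is 1 library, so no test across replicates was possible, no p-value is given, and origin, preparation and sequencing depth cannot be told apart. Depth was counted in UMIs (unique molecular identifiers, each marking 1 captured transcript). Median depth per cell was 5622 UMIs over 7821 cells of the D10 culture, 13512 over 2052 tail cells and 8171 over the 5954 of D6 PM. Between 3 and 10 cell barcodes were shared by any pair of libraries. Levels are CPM, the UMIs of a gene scaled to a fixed total of the UMIs summed over the cells of a group, and 95% intervals cover counting error only. Counting at the 3′ ends of transcripts involves no division by gene length, so that levels of different genes were not ranked against each other.

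Groups are the study's deposited cluster codes with at least 50 cells in a library, 27 in all, and were named from fixed marker genes. Code 1 in culture and tail is tendon-like. Code 2, led by cell cycle genes in both, is called proliferating tendon-like for its summed tendon markers (14687 CPM in the culture and 10527 CPM in the tail, against 16793 and 14469 CPM in code 1). Code 4 is fibrocartilage-like in culture and cartilage-like in tail, and code 11 endothelium-like. Code 3 of the culture and code 2 of D6 PM are pluripotent-like. In D6 PM, code 4 (700 cells, 11.8% of the library) is called somite-like: the fixed markers of paraxial mesoderm and somite summed to 1982 CPM there and to between 46.4 and 162 CPM in the other 5 groups. Its leading genes by fold held just Zic1 of that list, and Pax3, also on it, was lower in code 4 than in code 1 (38.0 CPM) and code 3 (41.3 CPM). The largest group, code 1 (2539 cells), was led by epithelial and endodermal genes such as Krt8, Krt18 and Rbp4. The codes without a name are referred to by their number, and the same number in culture and tail need not hold the same cells: culture code 5 was led by Trh, Dnmt3b, Actc1 and Ttn, tail code 5 by Myog and Myod1. Code 8 was endoderm-like epithelium in the culture and epidermis-like in the tail, and code 6 of the tail drew 69.2% of its UMIs from haemoglobin genes.

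Glycolysis splits glucose into pyruvate in the cytosol and yields ATP without oxygen; lactate dehydrogenase then turns pyruvate into lactate and restores the NAD+ that the glyceraldehyde-3-phosphate dehydrogenase step needs. Stem cells, embryonic cells and dividing cells in culture are known for high glycolytic flux, and cartilage, which lacks blood vessels, relies on it. Most genes of the pathway are textbook targets of hypoxia-inducible factors, which bind a short core of the letters ACGTG or GCGTG, and several are targets of Myc.

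Promoter windows of RefSeq (GRCm38.p6, 250 bases before to 50 bases after a transcription start) were read for the members because the levels of the 10 genes differed together between libraries, and 5 are shown. All 10 members matched, with 16 windows in total. Capitals mark ACGTG or GCGTG on either strand (CACGT and CACGC are their reverse complements), and in the palindrome CACGTG both strands are counted.
Slc2a1, chr4:119108495-119108794, plus strand: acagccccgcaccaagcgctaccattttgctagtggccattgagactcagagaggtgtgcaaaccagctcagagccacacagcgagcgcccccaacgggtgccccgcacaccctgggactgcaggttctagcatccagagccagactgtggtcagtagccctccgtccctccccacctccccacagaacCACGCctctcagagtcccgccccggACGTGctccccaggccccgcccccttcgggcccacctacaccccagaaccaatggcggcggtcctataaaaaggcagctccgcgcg
Aldoa, chr7:126799205-126799504, minus strand: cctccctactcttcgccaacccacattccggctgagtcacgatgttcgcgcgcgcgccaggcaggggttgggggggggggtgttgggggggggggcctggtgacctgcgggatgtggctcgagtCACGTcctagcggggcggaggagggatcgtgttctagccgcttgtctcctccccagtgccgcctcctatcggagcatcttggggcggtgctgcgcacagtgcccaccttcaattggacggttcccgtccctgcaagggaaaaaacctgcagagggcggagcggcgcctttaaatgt
Tpi1, chr6:124814109-124814408, minus strand: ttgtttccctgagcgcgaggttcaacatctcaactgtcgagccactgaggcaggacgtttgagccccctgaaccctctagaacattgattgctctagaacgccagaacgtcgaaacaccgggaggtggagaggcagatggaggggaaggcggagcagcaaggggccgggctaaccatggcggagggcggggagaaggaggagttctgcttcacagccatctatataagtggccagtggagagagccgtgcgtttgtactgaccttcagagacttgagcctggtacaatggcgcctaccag
Pgk1, chrX:106186850-106187149, plus strand: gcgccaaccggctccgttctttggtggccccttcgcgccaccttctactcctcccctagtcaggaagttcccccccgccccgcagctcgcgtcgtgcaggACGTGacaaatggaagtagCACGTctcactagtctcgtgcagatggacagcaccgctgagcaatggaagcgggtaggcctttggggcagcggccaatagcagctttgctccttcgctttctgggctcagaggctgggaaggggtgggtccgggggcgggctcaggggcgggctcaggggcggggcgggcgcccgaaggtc
Ldha, chr7:46845554-46845853, plus strand: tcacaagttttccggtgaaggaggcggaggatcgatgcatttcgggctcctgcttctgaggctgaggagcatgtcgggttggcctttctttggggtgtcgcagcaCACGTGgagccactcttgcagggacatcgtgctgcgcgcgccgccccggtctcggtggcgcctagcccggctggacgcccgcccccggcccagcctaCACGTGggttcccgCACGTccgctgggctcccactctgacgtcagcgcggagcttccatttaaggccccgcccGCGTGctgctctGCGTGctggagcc

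The Pgk1 window held ACGTG 2 times, beginning 150 and 131 bases before the start. The Ldha window shown held it 5 times (each of its 2 palindromes counting for both strands) together with 2 matches to GCGTG. The other Ldha window had 2 matches to GCGTG and none to ACGTG. Of the 10 members, 7 had ACGTG in at least 1 window, 5 had GCGTG, and 9 had either. Tpi1 was the member with neither in its window. Of all 27025 genes in the table, 21.8% had ACGTG, 35.2% GCGTG and 46.7% either in at least 1 window of this length. A gene with several windows has more chances of a match. By window, 13 of the 16 held either, against 43.8% of all 32851 windows. The 3 with neither were that of Tpi1 and 1 window each of Aldoa and Pkm that are not shown. A match of letters is a description of the sequence and shows no binding.

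The 10 genes together took 12159 CPM of the D10 culture, 14783 CPM of D6 PM and 2909 CPM of the tail. The sum weighs the genes with most UMIs. In culture tendon-like cells Ldha, Pgk1, Aldoa and Pkm each made up 17.6% to 19.7% of it, Slc2a1 2.12% and Hk2 0.466%. In tail nerve-like cells Pkm alone made up 40.4%. By group, their summed level ran from 7999 CPM (code 9, 53 cells) to 14733 CPM (pluripotent-like) in the culture and from 9644 CPM (somite-like) to 17651 CPM (code 6) in D6 PM. In the tail it ran from 119 CPM in erythroid-like code 12, where haemoglobin took 86.1% of UMIs, to 5176 CPM in code 7. Tail code 7 was shallow, with a median of 1881 UMIs per cell, of which a mean of 13.4 per cell came from the 10 genes. The ranges of the tail and of the other libraries did not overlap: the lowest group of either in vitro library stood above the highest group of the tail. Among neighbours in the order of levels, the counting intervals overlapped for culture codes 3 and 4 (14733 and 14579 CPM), for D6 code 5 and culture code 5 (14153 and 13986 CPM) and for culture codes 8 and 1 (10444 and 10383 CPM).

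**Figure D1:**
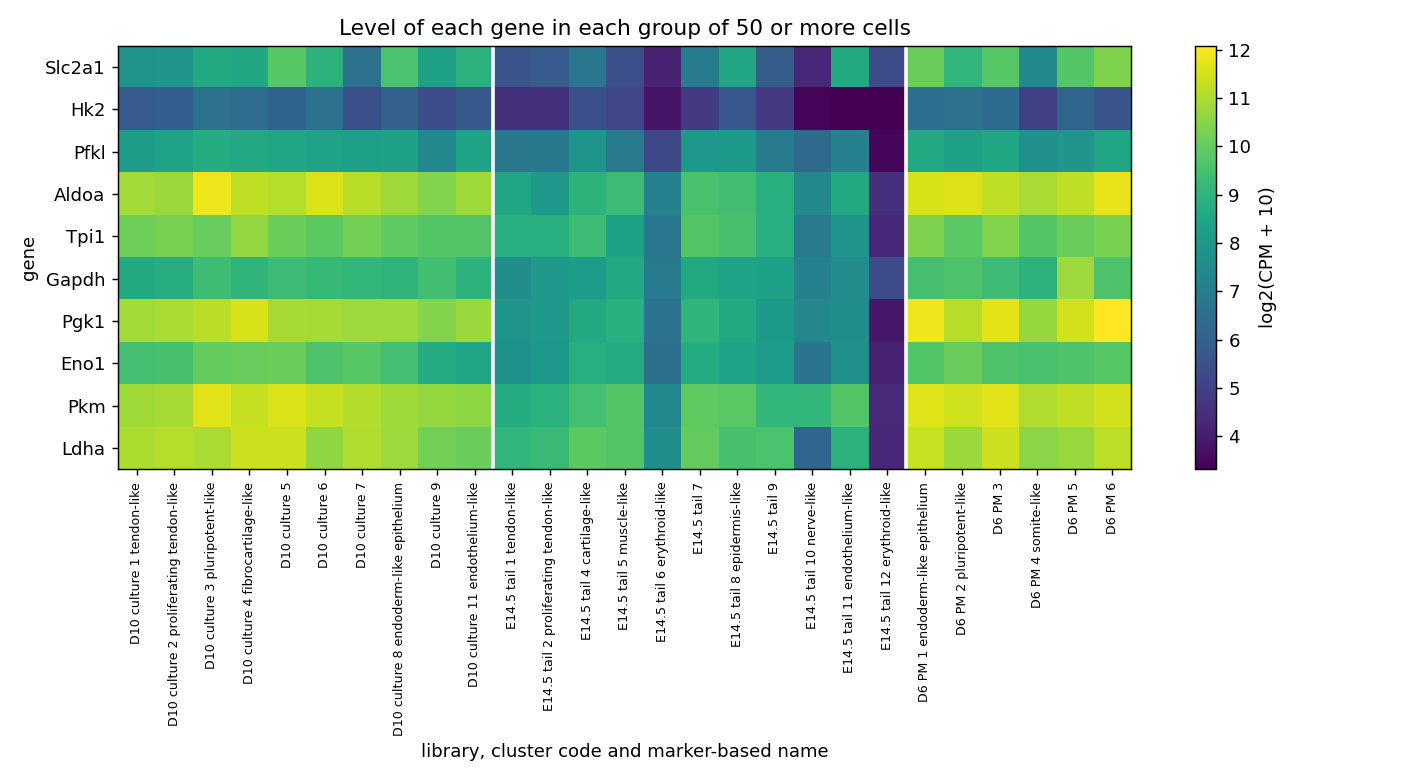
Level of each of the 10 genes (rows) in each group of at least 50 cells (columns, by library and cluster code), as log2(CPM + 10) on a colour scale. Dark is low: Pgk1, which is at most 516 CPM in any tail group and at least 1399 CPM in any other, shows the step between libraries most plainly, and the tail columns of codes 6 and 12, erythroid-like, are dark for nearly every gene.

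Tendon-like cells of the culture were set against those of the tail to see whether the members differ between cells given the same code. In the tendon-like group, the summed level was 10383 CPM (10334 to 10432, 2964 cells) in the culture and 2519 CPM (2489 to 2550, 685 cells) in the tail, a ratio of 4.12 (4.07 to 4.18). All 10 members were at least 1.5-fold higher in the culture and none was lower. Of the 10418 genes tested, 11.1% were past 1.5-fold in that direction and 27.0% in the other. The median ratio was 3.73 over the members and 0.867 over all genes tested, a shift of all genes of -0.21 on the log2 scale.

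Glucose enters the cell through Slc2a1 and is trapped as glucose 6-phosphate by hexokinase 2 (Hk2). In tendon-like cells, Slc2a1 stood at 220 CPM in the culture and 39.1 CPM in the tail, 5.63-fold higher in the culture (5.07 to 6.26). Hk2 was the member with the fewest UMIs in this comparison, with 48.3 CPM against 13.3 CPM, a ratio of 3.63 (3.02 to 4.38). The isozyme partners were also higher in the culture: Slc2a3, the high-affinity transporter, had 81.6 CPM against 15.0 CPM (5.43-fold) and Hk1, the broadly expressed hexokinase, 85.7 CPM against 41.0 CPM (2.09-fold).

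Phosphofructokinase (Pfkl, the liver-type subunit), aldolase (Aldoa) and triosephosphate isomerase (Tpi1) then commit, split and balance the sugar phosphates. Pfkl was at 286 CPM in culture tendon-like cells and 104 CPM in tail tendon-like cells, a ratio of 2.76 (2.58 to 2.95). Aldoa was at 1867 and 349 CPM, a ratio of 5.35 (5.17 to 5.54), and Tpi1 at 1115 and 444 CPM, a ratio of 2.51 (2.43 to 2.60). Aldoa thus moved further than its neighbours in the pathway. Of the partners at these steps, the muscle-type subunit Pfkm was within the fold, at 26.1 CPM in the culture and 28.6 CPM in the tail (0.911-fold, 0.784 to 1.06). Pfkp, the platelet-type subunit, was at 70.3 and 4.44 CPM (15.8-fold) and Aldoc at 63.2 and 4.44 CPM (14.2-fold); both passed the filter on detection (10% of the cells of either group) only through the culture.

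The later steps of the pathway harvest its energy. Gapdh, the dehydrogenase often used as a reference gene, was at 401 CPM in the culture and 189 CPM in the tail, the smallest ratio of the 10 (2.12, 2.02 to 2.23). Pgk1, whose reaction makes ATP, was at 1871 and 222 CPM, the largest (8.44, 8.09 to 8.81), and just 76 of the genes tested had a higher ratio. The ratio of Eno1 (enolase) was 3.34 (3.19 to 3.50) and that of Pkm (pyruvate kinase) 4.38 (4.24 to 4.53). Ldha, the subunit of lactate dehydrogenase that favours lactate, was at 2049 and 534 CPM, a ratio of 3.84 (3.73 to 3.95). Its partner Ldhb stood at 172 CPM in the culture and 205 CPM in the tail, within the fold, and the muscle enolase Eno3 went the other way, with 4.46 CPM against 15.6 CPM (0.286-fold), and passed the filter only through the tail. Gapdh, Pgk1, Ldha, Eno1 and other members have processed pseudogenes or near-identical copies, and reads that matched several places were not counted, so that their absolute levels are uncertain.

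**Figure D2:**
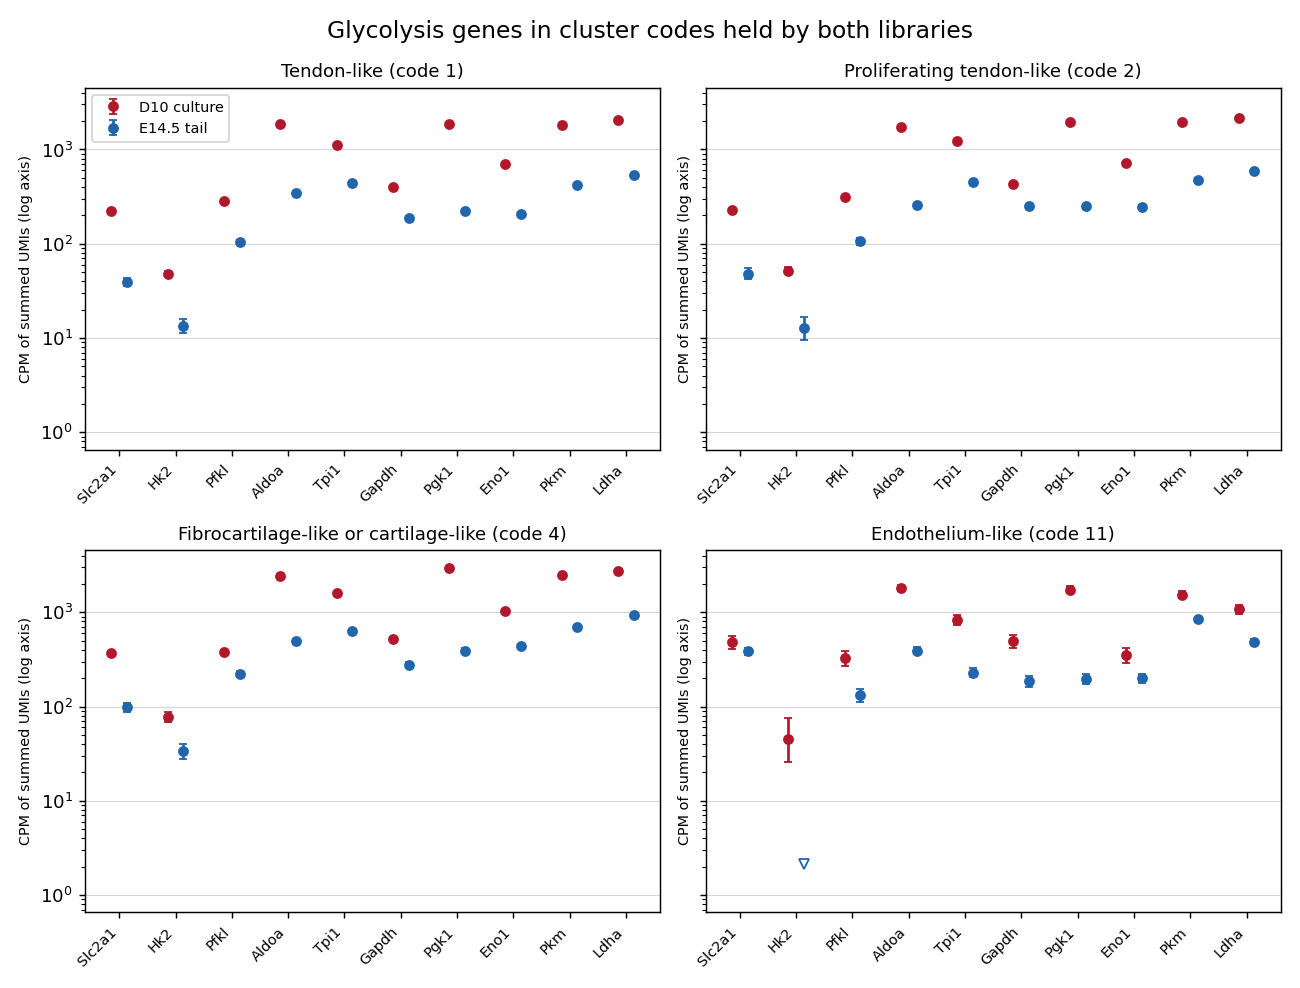
CPM of summed UMIs (log axis) of the 10 genes in the D10 culture and the E14.5 tail, for 4 cluster codes that both libraries hold. Bars are exact Poisson 95% intervals and the open triangle is the floor of 3 counts (2.12 CPM) for Hk2, which had 0 UMIs in tail endothelium-like cells; in codes 1, 2 and 4 the culture point lies above the tail point for all 10 genes, and in code 11 Slc2a1 differs least, at 479 against 388 CPM.

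The same direction held in the proliferating tendon-like group, where the summed level was 10800 CPM in the culture and 2675 CPM in the tail, a ratio of 4.04 (3.96 to 4.12). Again 10 of 10 members were at least 1.5-fold higher (11.4% of all genes), from Gapdh at 1.70-fold to Pgk1 at 7.92-fold. In code 4, fibrocartilage-like cells of the culture had 14579 CPM and cartilage-like cells of the tail 4203 CPM, a ratio of 3.47 (3.40 to 3.53), with 10 of 10 members higher (11.0% of all genes). Pgk1 (7.61-fold) and Aldoa (4.92-fold) led there, and Pfkl (1.73-fold) and Gapdh (1.86-fold) differed least. Pgk1 had the largest ratio of the members in codes 1, 2 and 4.

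Endothelium-like cells were few in both libraries (58 and 71), and their leading genes differed: Lyve1, Ccl21a, Mmrn1 and Prox1, known from lymphatic vessels, were among those of the culture, and Plvap, Emcn and Flt1 among those of the tail. Their summed level was 8684 CPM in the culture and 3057 CPM in the tail, a ratio of 2.84 (2.71 to 2.98). Of the 9 members detected in both libraries 8 were at least 1.5-fold higher, against 23.8% of all genes detected in either. Hk2 passed the filter only through the culture. Slc2a1 was the exception among the 9: endothelium-like cells of the tail already held 388 CPM, the highest level of any tail group, and those of the culture 479 CPM (1.24-fold, 1.03 to 1.48). In mean UMIs per cell, with no division by depth, the order of Slc2a1 was the other way, at 2.72 in the culture and 7.73 in the tail. Hk2 had 15 UMIs in the culture and 0 in the tail, and was at least 21.5-fold higher against a floor of 3 counts in the tail group (2.12 CPM), a bound that leaves out the counting error of the 15 UMIs.

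Mean UMIs of the 10 genes per cell, with no division by the total of the cell, were 58.1 in the culture and 37.2 in the tail for tendon-like cells and 85.5 and 62.3 for proliferating tendon-like cells, although tail cells were sequenced more deeply (a median of 13463 against 4918 UMIs in code 1). For fibrocartilage-like and cartilage-like cells these means were 56.7 and 57.7, and for endothelium-like cells 49.4 and 61.0, so that in codes 4 and 11 the culture was higher in share but not in captured molecules per cell. On this scale, chosen after seeing the data, only 4 of 10 members were at least 1.5-fold higher in code 1. In code 2, 3 were higher and 1 lower, and in code 4, 1 was higher and 4 lower. In code 11, 2 were higher and 4 lower: Pgk1 and Hk2 were the higher ones, Hk2 with 0 UMIs in the tail. Slc2a1 was among the lower ones there, with 2.72 UMIs per cell in the culture and 7.73 in the tail. Tpi1 and Gapdh were below 1 in codes 1 and 2 (0.952 and 0.804, then 0.932 and 0.579). The share of all genes past the fold was not counted on this scale. The part of depth in either measure was not tested.

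The share of a cell's UMIs that came from the 10 genes was also read cell by cell. In tendon-like cells it had a median of 1.14% in the culture (quartiles 0.810% and 1.44%) and 0.211% in the tail (0.152% and 0.288%). None of the 685 tail tendon-like cells lay above the culture median, and 5 of them (0.730%) lay above the culture's lower quartile. Likewise 0 of 186 proliferating tendon-like cells, 0 of 241 cartilage-like cells and 0 of 71 endothelium-like cells of the tail lay above the median of the culture cells with the same code. In code 9, which had Lyz2 and Tyrobp among its leading genes in both libraries, the shares overlapped: 4 of 157 tail cells (2.55%) lay above the culture median and 62 (39.5%) above its lower quartile, and 10 of 53 culture cells (18.9%) lay below the tail median. Of the culture tendon-like cells, 81 (2.73%) lay below the tail median.

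**Figure D3:**
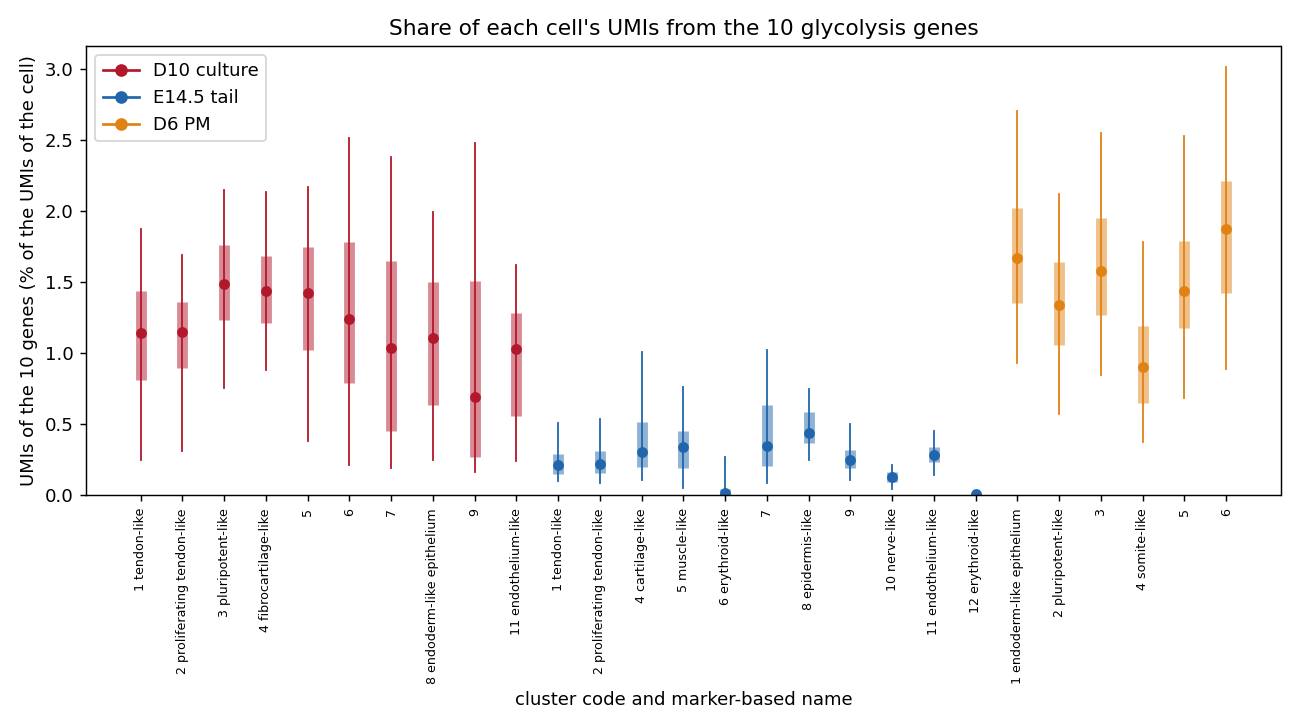
Share of each cell's UMIs that came from the 10 genes, by library and cluster code: points are medians over cells, thick bars the quartiles and thin lines the 5th to 95th percentiles. The tail medians, at most 0.436% (epidermis-like), lie below the medians of every group of the D10 culture and D6 PM, of which the lowest is 0.693% (culture code 9).

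Beyond the 10 members, 49 further genes of glycolysis, monocarboxylate transport and pyruvate use were counted in the same comparison of tendon-like cells. Of these, 28 passed the filter on detection; 13 were at least 1.5-fold higher in the culture, 4 lower, and their median ratio was 1.42. Of the 28, 2 passed only through the culture and 6 only through the tail, and among the 20 detected in both 10 were higher and 1 lower, with a median of 1.63. Of the higher ones, Gpi1 and Pgam1 act at steps between the members. Gpi1 (glucose-6-phosphate isomerase) stood at 640 against 164 CPM (3.91-fold) and Pgam1 (phosphoglycerate mutase) at 1556 against 399 CPM (3.90-fold). Slc16a3, which exports lactate, stood at 271 against 26.7 CPM (10.2-fold). Besides Eno3, the lower ones were Dld, Pdk2 and Pdp1, which form or regulate the pyruvate dehydrogenase complex (0.618-fold, 0.438-fold and 0.617-fold); of these 4, only Dld was detected in 10% of cells in both libraries, and the other 3 passed only through the tail. Other genes of that complex, named after their values were seen, went the other way or stayed within the fold: Pdk1 (2.31-fold), Pdk3 (1.83-fold) and Pdp2 (1.59-fold) were higher, and Pdha1 (0.978-fold), Pdhb (1.04-fold) and Dlat (0.952-fold) were within it.

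The neighbouring pathways were counted against the same background of 11.1% higher and 27.0% lower. Of 16 genes of the citric acid cycle, all tested, 1 was higher (Sdhb, 1.53-fold) and 2 lower (Sdhd, 0.658-fold, and Fh1, 0.552-fold), with a median ratio of 0.940 against 0.867 over all genes. Of 7 pentose phosphate genes, 5 were detected in both libraries, and none of these passed the fold (median ratio 1.26); Rpia (0.362-fold) passed the filter only through the tail. Of the Myc family and its partner, 1 gene (Max) was detected in both libraries and stayed within the fold (0.814-fold). Myc and Mycl passed only through the tail. Mycl was lower (0.366-fold), and Myc was within the fold, at 16.4 CPM in the culture and 14.6 CPM in the tail.

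Genes of the hypoxia response were counted in the same way. In tendon-like cells 11 of the 16 tested genes of the list of 19 were at least 1.5-fold higher in the culture and none was lower, with a median ratio of 2.57. Stc2, Egln3 and Bhlhe40 passed the filter only through the culture; among the 13 genes detected in both libraries 8 were higher, with a median ratio of 1.64. The largest ratios were those of Stc2 (24.1 against 0.494 CPM, 48.7-fold, from only 5 UMIs in the tail), the prolyl hydroxylase Egln3 (15.0-fold), the repressor Bhlhe40 (11.4-fold) and the collagen prolyl hydroxylases P4ha2 (7.17-fold) and P4ha1 (4.78-fold). Of 17 genes tested in proliferating tendon-like cells 14 were higher, against 11.4% of all genes. In code 4 it was 13 of 17, against 11.0%, with 1 lower, Hif1a itself (0.523-fold). Among genes detected in both libraries, 11 of 14 and 10 of 14 were higher. The other 3 in each passed only through the culture. Car9, a carbonic anhydrase that marks hypoxic cells and one of these 3 in code 4, had 193 UMIs in fibrocartilage-like culture cells and 1 in cartilage-like tail cells, a ratio of 192 with an interval of 34.0 to 7620.

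**Figure D4:**
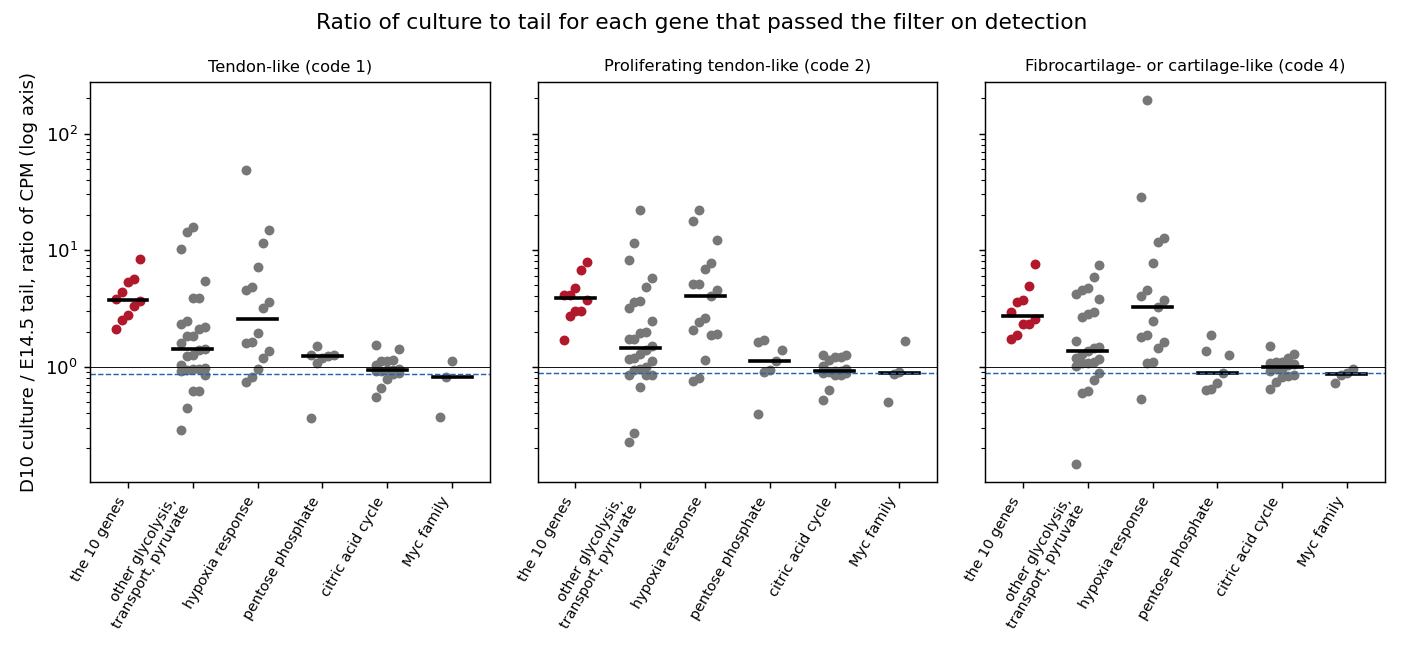
Ratio of D10 culture to E14.5 tail (CPM, log axis) for the 10 genes and for each gene of 5 lists that passed the filter on detection, in codes 1, 2 and 4. Black bars are the medians and the dashed line the median of all genes tested; in code 1 the medians are 3.73 for the 10 genes, 2.57 for the hypoxia response (1.64 over its genes detected in both libraries) and 0.940 for the citric acid cycle.

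Within each library, fibrocartilage- or cartilage-like cells were compared with tendon-like cells, fates that the study set apart. Code 4 (855 culture and 241 tail cells) has its name here from marker genes, and the study lists these cell numbers for its cluster 3. For its cluster 2, proposed there as fibrocartilage, the study lists the numbers of code 3 (1088 and 49). In the culture the summed level was 14579 CPM in fibrocartilage-like and 10383 CPM in tendon-like cells, a ratio of 1.40 (1.39 to 1.42). All 10 members were on the higher side. Only Slc2a1 (1.68-fold), Hk2 (1.61-fold) and Pgk1 (1.59-fold) were at least 1.5-fold higher, 3 of 10 against 5.02% of all genes. With each cell weighted equally 1 was, and with a fold of 2 none, with no share of all genes given for either. In the tail the ratio was 1.67 (1.63 to 1.70), from 4203 and 2519 CPM, and 7 of 10 members passed the fold, against 7.67%. There Hk2 (2.52-fold), Slc2a1 (2.50-fold), Pfkl (2.12-fold) and Eno1 (2.11-fold) led, while Aldoa, Tpi1 and Gapdh stayed between 1.40-fold and 1.47-fold. Slc2a1 and Hk2, the entry steps, had the highest ratios of the members in each library. In the culture Hk2 rested on 259 and 802 UMIs, and its ratio stood close to that of Pgk1. Per cell, without division by depth, the culture groups held 56.7 and 58.1 UMIs of the 10 genes and no member passed the fold, while the tail groups held 57.7 and 37.2.

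The other genes of the pathway gave 4 of 22 higher and none lower in culture fibrocartilage-like cells, among them Pfkp (2.29-fold), Slc16a1 (2.18-fold) and Aldoc (1.93-fold). In tail cartilage-like cells they gave 5 of 22 higher and 1 lower among genes detected in both groups. Pfkp (6.12-fold), Aldoc (5.85-fold) and Slc16a7 (1.73-fold), the last named after its values were seen, passed the filter only through the cartilage-like group. Hypoxia response genes were higher in 8 of 17 in the culture, led by Car9 (58.0 against 7.53 CPM, 7.70-fold) and Ankrd37 (2.99-fold), and in 3 of 14 in the tail (Bhlhe40, Bnip3 and P4ha1); Car9 in the culture and Bhlhe40 in the tail passed the filter only through the group where they were higher. None of the 16 citric acid cycle genes passed the fold in either library.

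As a share of UMIs, no member differed by 1.5-fold between proliferating and other tendon-like cells. The summed ratio was 1.04 (1.03 to 1.05) in the culture and 1.06 (1.04 to 1.09) in the tail, and 0 of 10 members passed 1.5-fold in either direction in either library, against 7.04% of all genes higher and 2.20% lower in the culture and 9.36% and 12.0% in the tail. Counts of 0 are near these shares and do not set the members apart from other genes. Aldoa was the member that was lower in dividing cells of both libraries, at 0.923-fold in the culture and 0.736-fold in the tail. Proliferating cells were deeper (a median of 7324 against 4918 UMIs in the culture and 22536 against 13463 in the tail). In mean UMIs per cell, chosen after seeing the data, they held 85.5 against 58.1 UMIs of the 10 genes in the culture, with 6 of 10 members at least 1.5-fold higher, and 62.3 against 37.2 in the tail, with 9 of 10 higher. This scale leaves depth in the values, and the share of all genes past the fold was not counted on it. The 2 counts therefore do not set the members apart from other genes.

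Pluripotent-like cells that remained at D10 held 14733 CPM of the 10 genes, 1.42-fold the level of tendon-like cells in the same dish (1.41 to 1.43). Of the members 5 of 10 were at least 1.5-fold higher, and so were 34.6% of all genes, so that the count stands close to the background. With a fold of 2 none was higher, and in mean UMIs per cell, which leaves depth in the values, all 10 were. Pluripotent-like cells were deeper (a median of 10370 against 4918 UMIs). The share of all genes is given neither at a fold of 2 nor in mean UMIs per cell. The count of 10 therefore does not set the members apart from other genes. Aldoa (3650 against 1867 CPM, 1.95-fold), Hk2 (1.83-fold), Pkm (1.78-fold), Slc2a1 (1.75-fold) and Gapdh (1.59-fold) were higher, whereas Tpi1 (0.924-fold) and Ldha (1971 against 2049 CPM, 0.962-fold) were not. Slc2a3 reached 659 CPM in pluripotent-like cells and 81.6 CPM in tendon-like cells (8.08-fold), Ldhb 1045 and 172 CPM (6.07-fold), and both pyruvate carrier subunits were lower, Mpc1 at 0.281-fold and Mpc2 at 0.276-fold.

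Among the other groups of the culture, Slc2a1 varied most, from 86.9 CPM in code 7 to 889 CPM in code 5, a 10.2-fold range. Each of the other 9 members spanned between 1.70-fold (Gapdh) and 3.12-fold (Eno1) over the same 10 groups. The low end of Slc2a1 rests on 41 UMIs in code 7, a shallow group with a median of 1424 UMIs per cell. Its median mitochondrial share was 0.0422% in the 26 cells lowest in the 10 genes and 0.0433% in the other 231. The next lowest group for Slc2a1 was tendon-like, at 220 CPM. Endoderm-like epithelium had Slc2a1 at 766 CPM (3.48-fold over tendon-like cells) with a summed ratio of 1.01 (0.986 to 1.03) and no other member past the fold (23.4% of all genes higher). Code 9, led by Lyz2, S100a6 and Mmp3, had the lowest summed level of the culture, with Gapdh higher (1.70-fold) and Hk2, Pfkl, Eno1 and Ldha lower (22.7% of all genes higher and 32.4% lower).

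In the tail, where cell types are those of the embryo, the members differed between groups, and not always together. Epidermis-like cells held 4729 CPM, 1.88-fold over tendon-like cells (1.83 to 1.92), with 9 of 10 members past 1.5-fold (21.7% of all genes) and Slc2a1 at 350 CPM, 8.95-fold higher. Muscle-like cells held 4037 CPM, a ratio of 1.60, with 7 of 10 higher (17.1%): Pgk1 (2.06-fold), Gapdh (2.03-fold), Hk2 and Pkm (each 2.01-fold), but not Slc2a1 (0.873-fold, 0.672 to 1.12) or Tpi1 (0.701-fold). Endothelium-like cells had Slc2a1 9.91-fold higher and Pkm 2.04-fold higher, Tpi1 lower (0.514-fold) and no UMI of Hk2 in 1416454 UMIs; 2 of 10 members were higher and 2 lower, of which Hk2 passed the filter only through tendon-like cells (19.7% and 31.8% of all genes).

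Nerve-like cells stood lowest outside the erythroid groups, at 1342 CPM, a ratio of 0.533 to tendon-like cells (0.510 to 0.556), with 7 of 10 members at least 1.5-fold lower against 31.8% of all genes; of these, Hk2 passed the filter only through tendon-like cells. Among the members with more than a few UMIs, Ldha was lowest, at 62.8 against 534 CPM (0.118-fold), followed by Slc2a1 (0.242-fold) and Tpi1 (0.245-fold), and Hk2 had 2 UMIs (0.0889-fold, 0.0107 to 0.327). Pkm was the exception at 542 CPM (1.30-fold); its isoforms cannot be told apart in 3′ counts. In erythroid-like code 12 Slc2a1 was at 30.1 CPM and 0.770-fold (0.520 to 1.11), from 32 UMIs in 3.12% of the 128 cells, while each of the other 9 members was at 0.164-fold or less. These levels are shares of all UMIs, of which 86.1% were haemoglobin there, 97.5% of all genes were lower, and every member but Gapdh passed the filter only through tendon-like cells. The summed ratio of code 12 to tendon-like cells was 0.0471 (119 against 2519 CPM), 0.349 without mitochondrial, ribosomal protein and haemoglobin genes (981 against 2813 CPM), and 5.83 when divided by the median ratio of all genes.

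The isozyme pairs differed in their mix between kinds of cells, given here as a share of the UMIs of the pair. Ldha made up 92.2% (92.0 to 92.5) of Ldha and Ldhb in culture tendon-like cells and 72.2% (71.2 to 73.2) in tail tendon-like cells. It made up only 65.3% in pluripotent-like cells at D10, 59.9% in pluripotent-like cells at D6 and 11.2% (9.29 to 13.4) in nerve-like cells. Hk2 made up 36.1% of Hk2 and Hk1 in culture tendon-like cells and 24.5% in those of the tail, 86.9% in epidermis-like cells, and 1.90% in nerve-like cells. Slc2a1 made up a like share of Slc2a1 and Slc2a3 in tendon-like cells of both libraries (73.0% and 72.3%, with overlapping intervals), but 36.8% in D10 pluripotent-like cells, and at D6 29.6% in pluripotent-like cells and 34.1% in endoderm-like code 1 and 30.4% in code 3, which was led by cell cycle genes.

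**Figure D5:**
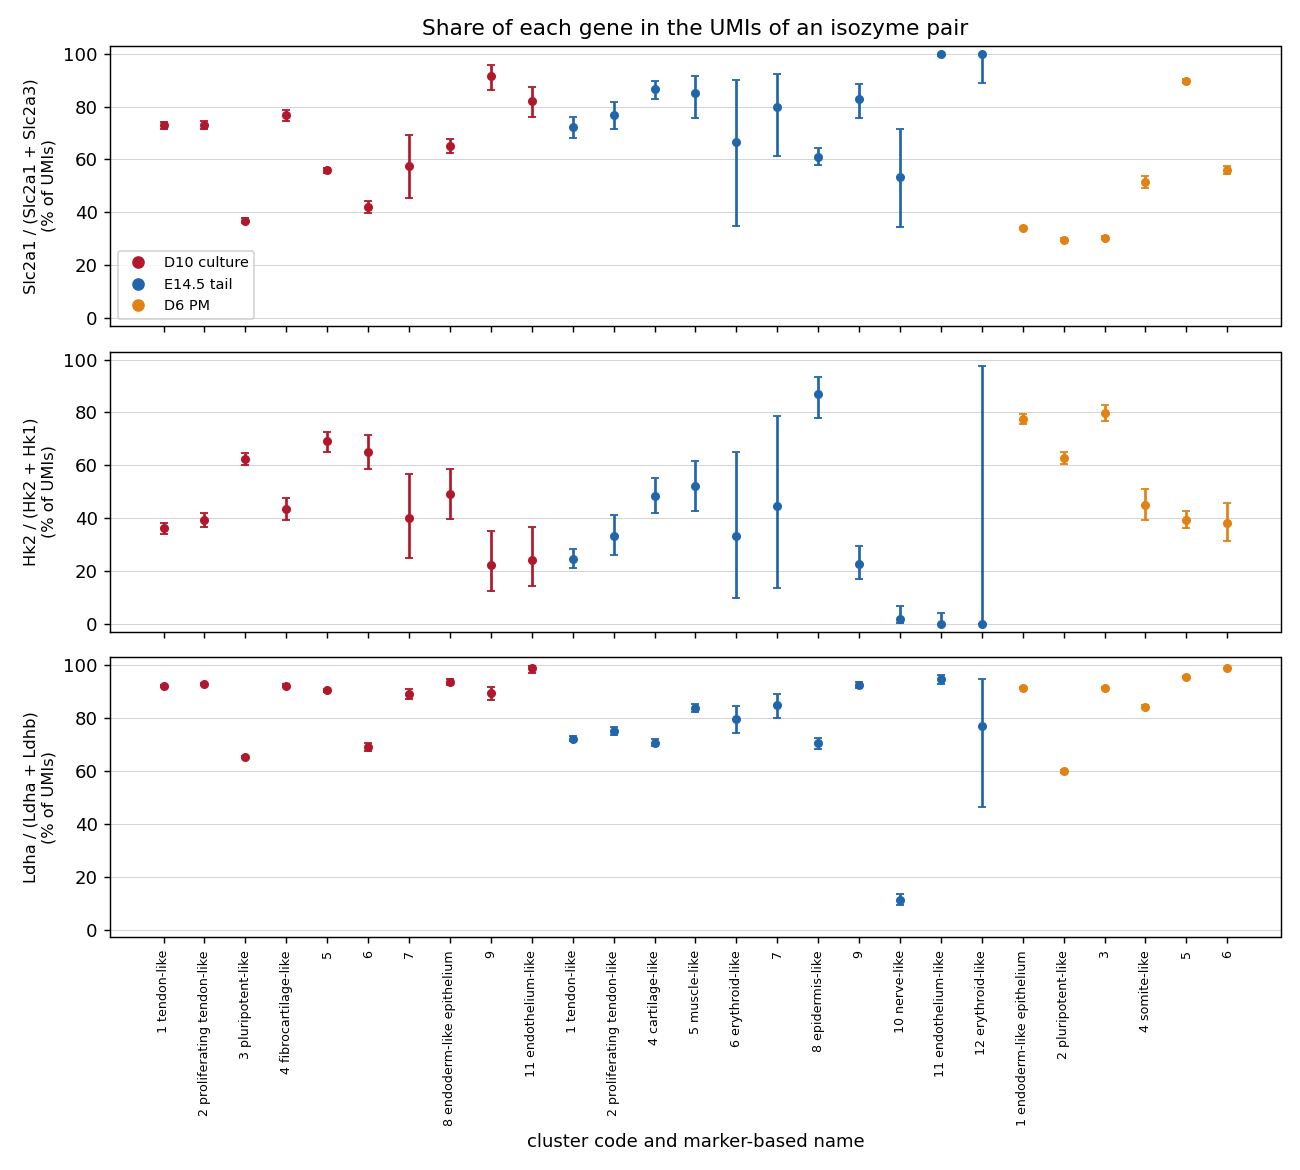
Share of Slc2a1, Hk2 and Ldha in the UMIs of their isozyme pair (percent), by library and cluster code, with exact binomial 95% intervals. Ldha lies at or above 84.3% in all but 2 of the culture groups and all but 1 of the D6 PM groups, and at 11.2% in nerve-like cells of the tail.

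At D6 the somite-like group had the lowest summed level of its library, 9644 CPM (9567 to 9723), and the other 5 groups held between 13521 and 17651 CPM. Endoderm-like epithelium was 1.74-fold higher (1.73 to 1.76), with 7 of 10 members past 1.5-fold against 11.9% of all genes, and pluripotent-like cells 1.40-fold higher, with 5 of 10 (24.5%). Code 6, led by embryonic globin and endothelial genes (Hba-x, Hbb-y, Kdr, Cdh5), was highest, at 1.83-fold with 8 of 10 (14.4%). Slc2a1 had the widest gaps. It was at 168 CPM in somite-like cells and between 531 and 1314 CPM in the other 5 groups. Hk2 was likewise lowest in somite-like cells, at 21.2 CPM against 39.0 to 86.9 CPM. Gapdh reached 1764 CPM in code 5, led by Col1a1, Bgn and Dcn, its highest level in any of the 27 groups.

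Tendon-like cells at D10 were set against somite-like cells at D6, in libraries of different days. Tendon-like cells of the culture held 1.08-fold (1.07 to 1.09) the level of somite-like cells at D6, and 1 of 10 members passed 1.5-fold, Hk2 (48.3 against 21.2 CPM, 2.28-fold), against 16.0% of all genes. That count moved with the scale: 2 were higher with each cell weighted equally or without called doublets, 4 over the median ratio of all genes (0.891), and in mean UMIs per cell 0 were higher and 4 lower. The share of all genes was counted in CPM only. Pfkl (1.40-fold), Ldha (1.36-fold), Tpi1 (1.34-fold) and Slc2a1 (1.31-fold) were higher by less, while Gapdh (0.840-fold) and Pkm (0.872-fold) were slightly lower. Of the partners, Pfkp (1.14-fold) and Pfkm (1.08-fold) were within the fold, Hk1 was 3.30-fold and Aldoc 3.31-fold higher at D10, whereas Slc2a3 (0.513-fold), Ldhb (0.616-fold) and Eno3 (4.46 against 260 CPM, 0.0172-fold) were lower; Eno3 passed the filter only through D6 PM. Of 16 citric acid cycle genes, 1 was higher and 7 were lower, with a median ratio of 0.778; of all genes 24.4% were lower, and their median ratio was 0.891. Per cell, without division by depth, the order was the other way, with 58.1 UMIs of the 10 genes at D10 and 83.7 at D6.

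Pluripotent-like cells of D10 over those of D6 gave a summed ratio of 1.09 (1.08 to 1.10), and 0 of 10 members passed 1.5-fold, against 11.0% of all genes higher and 8.43% lower. A count of 0 is near these shares and does not set the members apart from other genes. Slc2a1 (0.724-fold) and Gapdh (0.820-fold) were lower at D10 and Pfkl (1.35-fold) higher. All of the 16 citric acid cycle genes also stayed within the fold here.

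Cells of 1 group also differed among themselves. After thinning each cell to 3000 UMIs, the summed count of the 10 genes in culture tendon-like cells (2595 cells) had a mean of 33.1 and a variance 6.51 times its mean, a variation of 40.8% beyond counting. Fibrocartilage-like cells were more uniform, at 21.2%, and tail tendon-like cells showed 54.3% and cartilage-like cells 63.6%. All 45 pairs of members had correlations above 0 in culture tendon-like cells, with a median r of 0.212 and the highest for Aldoa and Pgk1 (0.463). In somite-like cells the median was 0.259 and the same pair was highest (0.490). Thinned to 5000 UMIs, which 1420 culture tendon-like and 554 of the somite-like cells reached, the medians were 0.320 and 0.305 and the highest pairs Aldoa with Pgk1 (0.595) and Aldoa with Pkm (0.594); depth and the cells kept changed together. These points share a library and a depth, the values are descriptions, and counts of a few UMIs per gene hold correlations near 0.

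Across cells of a group, the share of the 10 genes went with the share of the hypoxia response list, which holds none of them. Spearman's rho was 0.609 in culture tendon-like cells (2964 cells), 0.581 in proliferating tendon-like, 0.515 in pluripotent-like and 0.329 in fibrocartilage-like cells of the culture. In the tail it was 0.249 in tendon-like and 0.665 in cartilage-like cells (241 cells). With the citric acid cycle it was -0.0569 in culture tendon-like, -0.115 in proliferating tendon-like, 0.0361 in pluripotent-like and 0.0128 in fibrocartilage-like cells of the culture, and 0.168 in tendon-like and 0.0158 in cartilage-like cells of the tail. Over the 14 groups read, rho ran from 0.123 (D6 code 5) to 0.665 with the hypoxia response and from -0.119 to 0.280 with the citric acid cycle, and was higher with the hypoxia response in 13; in culture code 6 it was 0.220 and 0.280. Both shares have the total of the same cell as denominator.

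The 10% of culture tendon-like cells with the lowest share (297 cells) had a median of 0.252% from the 10 genes, against 1.20% in the other 2667 cells. Their median depth was higher, 7097 against 4785 UMIs, as was the mitochondrial share, 2.83% against 1.85%, and the hypoxia response genes took 0.0867% against 0.307%. In fibrocartilage-like cells the same split gave 0.883% against 1.49% from the 10 genes, with like depths (3604 and 3714 UMIs) and mitochondrial shares of 1.97% and 1.51%. In tail tendon-like cells the lowest 10% were shallower instead (10656 against 13686 UMIs), with mitochondrial shares of 3.42% and 3.16%. The hypoxia response genes differed less in these groups, at 0.297% against 0.404% in fibrocartilage-like and 0.0822% against 0.0923% in tail tendon-like cells. Over all culture tendon-like cells the members' share had a rho of -0.495 with the mitochondrial share and -0.242 with depth; the part of either in the low cells was not tested.

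Over the 27 groups, the gene whose pattern was most like the summed level of the members was Pgam1 (Pearson's r = 0.989 on log2(CPM + 10), among 5241 genes), the mutase that acts between Pgk1 and Eno1. Gpi1 came next (0.959), followed by Ccdc58 (0.954), Mif (0.953), Mrpl45, Gtf2e2, Grhpr, Kxd1, Tomm20 and Tbrg1 (0.935 to 0.931). This order pools libraries of different levels. Within the culture alone Aimp1 came first (0.944) and within the tail alone Btf3 (0.993), and neither Pgam1 nor Gpi1 was among the first 10 of either. Within D6 PM alone Krt19 came first (0.974) and Pgam1 had rank 4 (0.943). Of the members themselves, Aldoa and Pgk1 were most like each other (0.983), and Slc2a1 was the least like the rest, with r = 0.782 to the summed level and at most 0.795 to any other member. The groups share 3 libraries, and the 2 erythroid-like groups lie far below the others, so that these values are descriptions.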

How the data were processed

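UMI counts per gene and cell were used as the authors deposited them, with the cluster code of each cell. Single-cell 3′ libraries were processed by the authors with Cell Ranger, leaving out reads that mapped to several places, and clustered with Seurat 3.0, culture and tail together, per the submitters' processing notes and the study's methods. Cells above 7.5% mitochondrial transcripts and 2% of cells at either end had been removed; the genome build was not given in the sources used here. For each code with at least 50 cells, UMIs were summed and divided by the total (CPM), with exact Poisson intervals for levels, conditional binomial intervals for ratios and Clopper-Pearson intervals for shares (95%, SciPy 1.17.1, NumPy 2.4.6, Python 3.11.15). Intervals cover counting error only. Genes detected in at least 10% of cells of either group were tested against a fold of 1.5. Shares of all genes are over these genes, and not over genes detected in both groups. No test across replicates was possible with 1 library per group. The scripts were tested on simulated data. Doublets (1.48%, 0.439% and 1.36% of cells in culture, tail and D6 PM, Scrublet in Scanpy 1.11.5, expected rate 6%) were kept and left out as an alternative; the tail's call rate is low. Promoters came from RefSeq (GRCm38.p6). Members, 5 lists of 95 further genes and markers were chosen with earlier results of these data known. All members are named; of each list, up to 5 genes furthest from 1 in each direction, isozyme partners, and the 10 genes most like the members. Other alternatives were another denominator, equal weights per cell, a minimum of 1000 genes, a fold of 2, a filter of 100 UMIs, scaling by the median ratio, a pseudocount of 1, thinning to 5000 UMIs and, chosen after seeing the data, mean UMIs per cell.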

Additional observations from a re-analysis of the deposited data

How the results depend on the processing

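No paired analysis was possible because each group holds 1 library, and for the same reason no replicate could be left out. Depth limits Hk2 most, which had 0 to 16 UMIs in 8 of the 27 groups. Of 560 counts of members past the fold, 492 stayed within 1.5 times of the reported count under the alternatives, and 68 moved further. Of 210 summed ratios 117 moved out of their counting interval, as did 191 of 534 single ratios and 53 of 108 summed levels, and 9 of 19 median correlations moved by 0.05 or more when thinned to 5000 UMIs. In addition, 7 summed and 15 single ratios that were past the fold turned to the other side of 1. Counting ratios reported within the fold as well, 13 and 41 did, 9 and 31 of them in mean UMIs per cell. No ratio of Hk2 could be given for code 11 in any setting, since the tail group had 0 UMIs.

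Most turns came with mean UMIs per cell, an alternative chosen after seeing the data, which leaves depth in the values. The share of all genes past the fold was not counted on that scale, so its counts of members have no background beside them. For culture over tail it gave 4 members higher in code 1, with Tpi1 at 0.952 and Gapdh at 0.804, and in code 2 it gave 3 higher and 1 lower, with Tpi1 at 0.932 and Gapdh at 0.579. In code 4 it gave 1 higher and 4 lower, with a summed ratio of 0.983 and Hk2 at 0.658, Pfkl at 0.490, Tpi1 at 0.719, Gapdh at 0.528, Eno1 at 0.663 and Ldha at 0.833. In code 11 it gave 2 higher and 4 lower, with a summed ratio of 0.810. Of the 2, Hk2 was counted with 0 tail UMIs and has no ratio, so that Pgk1 alone was higher among members detected in both groups. Pfkl stood at 0.704, Gapdh at 0.757, Eno1 at 0.499, Pkm at 0.517 and Ldha at 0.626. The summed ratio of code 8 became 0.687 and that of tail code 7 over tendon-like cells 0.360. In the culture, 10 members were then higher in pluripotent-like and 0 in fibrocartilage-like than in tendon-like cells. For D10 tendon-like over D6 somite-like cells it gave 0 higher and 4 lower, and for pluripotent-like cells of D10 over D6 1 lower.

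With a fold of 2, the members higher than in tendon-like cells numbered 0 for culture pluripotent-like, 0 for culture fibrocartilage-like and 4 for tail cartilage-like cells. With cells weighted equally, 1 member was higher in culture fibrocartilage-like cells, and 2 in D10 tendon-like over D6 somite-like cells. That last count was also 2 without called doublets and 4 over the median ratio of all genes. Over the median ratio, the summed ratios of erythroid-like codes 6 and 12 to tail tendon-like cells became 1.76 and 5.83, and without mitochondrial, ribosomal protein and haemoglobin genes that of code 6 became 1.19. Of the 10 genes most like the members, 6 were shared with a pseudocount of 1, and 2, 0 and 1 within the culture, the tail and D6 PM alone. The cause of these moves was not tested.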
